A study of Arabidopsis thaliana with 6 samples.

Results

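The small RNAs described here are the 23-nt and 24-nt sequences of Arabidopsis thaliana leaves that match the nuclear genome at a single place. Of 18124 distinct small RNA sequences listed with normalised read numbers, 1729 were 23 or 24 nt long, 644 of these had exactly 1 perfect match in the whole genome (TAIR10.1), and 583 of the matches were nuclear. From these, 11 sequences of trans-acting siRNA loci, 11 sense sequences of miRNA genes, 18 of ribosomal DNA units, 1 of an snRNA gene and 17 of snoRNA genes were left out. The remaining 525 sequences (484 of 24 nt and 41 of 23 nt) were sorted by first base, chromosome, place beside genes and cluster, and summed per library. The 6 libraries came from untreated leaves, 3 of wild type (WT) and 3 of the rdr1 mutant, from plants raised with 16 h of light at 22 °C. The design asks how small RNAs differ in rdr1, a mutant of RNA-DEPENDENT RNA POLYMERASE 1 (RDR1), which makes double-stranded RNA from a single-stranded template. Neither the allele nor the accession of either genotype, nor the number of plants in a library, is stated in the sources.

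In plants, most 24-nt siRNAs belong to RNA-directed DNA methylation. RNA polymerase IV makes short transcripts at transposons and other repeats, RDR2 copies them, DICER-LIKE 3 cuts the double-stranded product, and the 24-nt strand guides ARGONAUTE 4 and related proteins to matching chromatin. ARGONAUTE 4 is known to favour siRNAs that begin with adenine. RDR1 is better known for copying viral RNA and other aberrant transcripts, and its targets at single nuclear loci are less well described.

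The sequences are printed as DNA letters from 5′ to 3′, with the first base in capitals because the first base is the feature on which these siRNAs are sorted. The 5 most abundant sequences come first, in falling order of their mean over all libraries.
AT1G09805, chr1:24721133-24721156, plus strand: Aaccatatcttttgtcggaagatt
AT3G26775, chr3:9848313-9848336, minus strand: Atactggatcagattgcacctaga
PAP15 upstream, chr3:2258813-2258836, plus strand: Atgtttaggcactttcaaaagact
AT1G34150 upstream, chr1:12435434-12435457, minus strand: Atcgttgtacttaaaccggcactc
AT3G00210 downstream, chr3:1963750-1963773, minus strand: Gtcagtatgagagggataacagtt

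The 8 sequences of a cluster 5′ of MLO11 show how members of 1 locus lie on both strands and overlap at many steps. None of them had a read in rdr1.
MLO11 sequence 1, chr5:21821203-21821226, plus strand: Aaaggaagacacaaacattcagat
MLO11 sequence 2, chr5:21821210-21821233, minus strand: Attgcacatctgaatgtttgtgtc
MLO11 sequence 3, chr5:21821216-21821239, minus strand: Atccacattgcacatctgaatgtt
MLO11 sequence 4, chr5:21821219-21821242, plus strand: Attcagatgtgcaatgtggatggt
MLO11 sequence 5, chr5:21821221-21821244, plus strand: Tcagatgtgcaatgtggatggtct
MLO11 sequence 6, chr5:21821221-21821244, minus strand: Agaccatccacattgcacatctga
MLO11 sequence 7, chr5:21821227-21821250, plus strand: Gtgcaatgtggatggtctaaagac
MLO11 sequence 8, chr5:21821242-21821265, minus strand: Gaaatacactataaggtctttaga

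The most abundant sequence of 9 further clusters that changed between genotypes is given next, the first 4 from clusters lower in rdr1 and the other 5 from those higher in rdr1.
AT1G30680 upstream, chr1:10880907-10880930, minus strand: Aatgtggtgtatgctttcgtggta
AT1G70080 coding exon, chr1:26395164-26395187, plus strand: Agcaatatcatctctgagacgaga
AT2G02440 intron, chr2:638205-638228, plus strand: Aagtctggtgaaactgatacgact
AT3G05535 downstream, chr3:10713738-10713761, plus strand: Aagcatggacatgtaaatctaacc
AT1G29550 upstream, chr1:10330095-10330118, minus strand: Atgatttccagtcatttcgacggt
AT1G29650 downstream, chr1:10363241-10363264, plus strand: Ctttggctctgtagttgaatggca
AT3G22345 upstream, chr3:7898458-7898481, minus strand: Atatagtgtagctggaagacctgt
AT4G06220 downstream, chr4:8447004-8447027, plus strand: Atggctcaaacacttgaagtgaca
AT5G08250 upstream, chr5:2656176-2656199, minus strand: Aaataaacaagaacttaggtgatc

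The widest cluster that fell in rdr1 lay upstream of MYB3R-5 (AT5G02320, a MYB transcription factor gene), at chr5:486739-486973. Its 235 bases are printed on the plus strand, with the 93 bases covered by its 8 sequences in capitals, to show that they come from separate short stretches.
MYB3R-5 upstream region, chr5:486739-486973, plus strand: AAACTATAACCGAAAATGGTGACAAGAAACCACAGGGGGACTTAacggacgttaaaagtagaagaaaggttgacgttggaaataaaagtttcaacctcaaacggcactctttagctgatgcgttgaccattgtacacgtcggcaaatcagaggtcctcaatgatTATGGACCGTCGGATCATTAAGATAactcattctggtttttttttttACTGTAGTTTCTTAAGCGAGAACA
A second cluster that fell in rdr1, downstream of AT5G02340 (a cysteine and histidine-rich C1 domain protein gene), began 4896 nt after the end of this one. Its 23-nt sequence differed from a 23-nt sequence of the first by 1 base, A6G, counted from the 5′ end with the base of the MYB3R-5 sequence first. The opposite-strand 24-nt partner of the first is shown with them because these form the end pattern described below.
MYB3R-5 23-mer, chr5:486903-486925, minus strand: Tcttaatgatccgacggtccata
AT5G02340 23-mer, chr5:491870-491892, minus strand: Tcttagtgatccgacggtccata
MYB3R-5 24-mer partner, chr5:486904-486927, plus strand: Atggaccgtcggatcattaagata

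Values are normalised reads, scaled by the authors to 8000000 reads of a library total. The totals behind the scaling ranged from 4668411 reads in rdr1 replicate 2 to 9955668 reads in WT replicate 3, so that 1 read was worth between 0.804 and 1.71. The members held 6669 to 19184 reads per library, or 0.349% to 1.05% of the reads listed. Every listed sequence reached at least 20.07 in some library. Sequences below this level in all 6 libraries were not analysed here, and the sum of a locus leaves them out. The libraries differed in the lengths of all listed RNA: the share of 28 to 34 nt ran from 4.87% in rdr1 replicate 1 to 35.3% in WT replicate 1, and that of 17 to 19 nt from 5.72% in WT replicate 1 to 35.2% in rdr1 replicate 1. The leaf miRNAs miR156a, miR165a, miR166a and miR172a were listed in all libraries, and the pollen-enriched miR845a and miR845b were not listed. RDR1 itself (AT1G14790) had 0 members in its body or within 1 kb, and its mRNA was not measured, so the genotype could not be checked here.

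Most members began with adenine. Adenine was the first base of 400 of 525 members (76.2%), thymine of 59, guanine of 53 and cytosine of 13. Among the 24-nt members 391 of 484 (80.8%) began with adenine, whereas positions 2 to 24 held adenine in 10.5% to 48.8% of them, with a mean of 31.0%. The 23-nt members differed, with adenine first in 9 of 41 (22.0%) and thymine in 48.8%. Of the other nuclear 23-nt and 24-nt sequences listed, which match several places or lie in the genes left out, 413 of 1066 (38.7%) began with adenine, and of all listed sequences that are no members 24.4% did. The median GC content was 37.5% in members, 41.7% in those other nuclear sequences and 51.9% in all non-members. The share of the summed member level that began with adenine lay between 78.6% and 85.2% in the 6 libraries, with the highest share in rdr1 replicate 2.

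**Figure D1:**
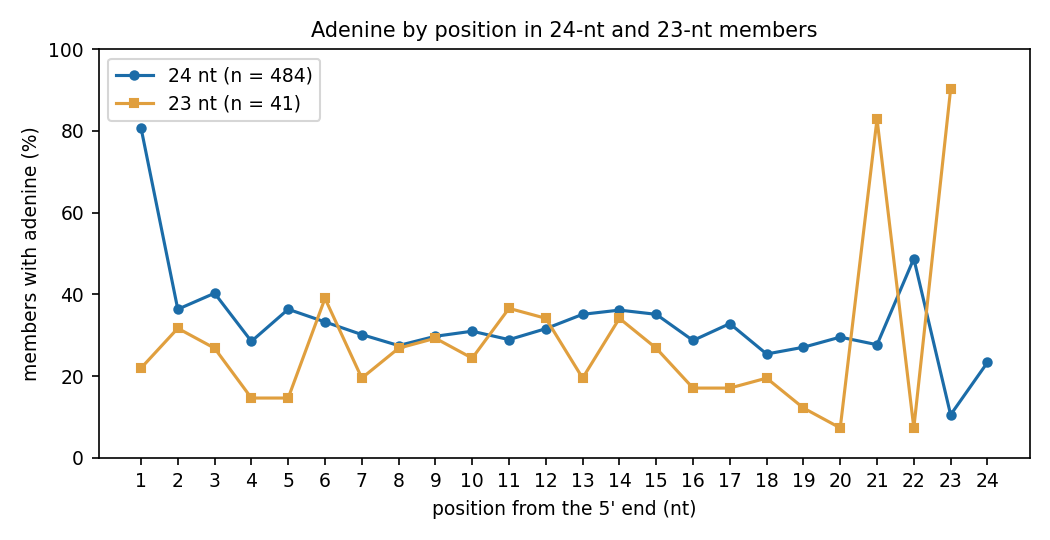
Share of members with adenine (%) at each position from the 5′ end, for the 484 members of 24 nt (circles) and the 41 of 23 nt (squares). The 24-nt members stand at 80.8% at position 1 and at most at 48.8% elsewhere, and the 23-nt members reach 82.9% at position 21 and 90.2% at their last position.

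The 23-nt members had a marked 3′ end. The last base was adenine in 37 of 41 (90.2%), position 21 was adenine in 82.9%, and 22 of the 41 ended in TA, against 25 of the 484 members of 24 nt. Of the 41, 24 lay in a cluster that also held a 24-nt member, and 14 overlapped a 24-nt member of the opposite strand, in 22 pairs. In 7 of these 22 pairs the 3′ end of the 23-mer passed the 5′ end of the 24-mer by 1 nt and the 3′ end of the 24-mer passed that of its partner by 2 nt, as in the MYB3R-5 pair printed above. No other arrangement was found in more than 2 pairs. Among 90 overlapping pairs of 24-nt members on opposite strands only 1 pair had 2-nt 3′ overhangs at both ends, the arrangement of a duplex cut by a Dicer, and other offsets held up to 6 pairs each. The table lists abundant strands only, so partners below the listing minimum were not seen.

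Members lay beside genes more than in them. By the annotation, 104 (19.8%) overlapped a gene body, 257 (49.0%) lay within 1 kb upstream of a gene start, 94 (17.9%) within 1 kb downstream of a gene end and 70 (13.3%) farther away. Where a sequence lay within 1 kb of both a gene start and a gene end, upstream was taken first. This held for 113 of the 257, so that 207 members outside gene bodies lay within 1 kb downstream of some gene. With the same order of precedence, the classes held 64.1%, 17.4%, 7.43% and 11.0% of all positions of the nuclear genome. The median distance upstream was 396 nt, and 55, 77, 72, 31 and 22 members fell in successive steps of 200 nt from the gene start. Of the 104 members in gene bodies, 24 lay in exons of non-coding genes, 20 in introns, 19 in coding exons, 19 in UTRs, 13 across a gene end and 9 across an exon-intron boundary, with 49 sense and 55 antisense to the gene. With 1 locus taken for each member, those in or beside genes were assigned to 281 loci. Transposable elements were not analysed here.

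**Figure D2:**
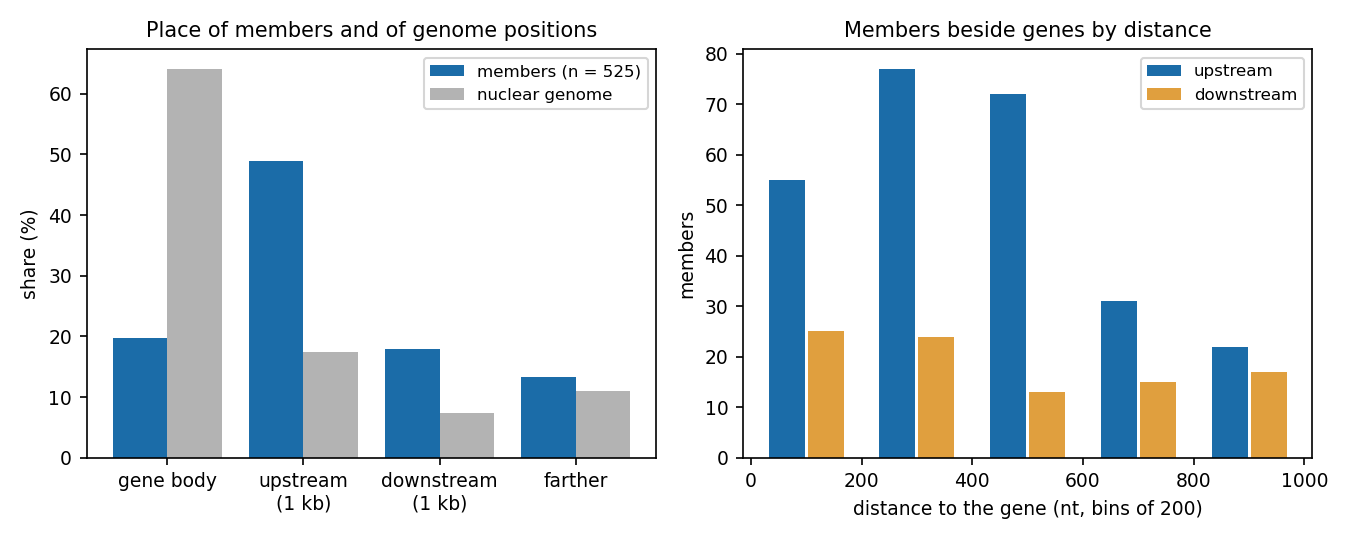
Left, share (%) of the 525 members and of all nuclear genome positions in each place. Right, number of members by distance to the gene in steps of 200 nt, upstream and downstream. Upstream windows hold 49.0% of members against 17.4% of the genome, with most members within 600 nt of the gene start.

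The 5 chromosomes carried 123, 82, 128, 63 and 129 members in order, which is 3.39 members per Mb on chromosome 4 and 5.46 on chromosome 3, with the others between. Members within 200 nt of each other on either strand formed 343 clusters. Of these, 257 held a single sequence, 50 held 2 and 36 held 3 or more, with up to 12 in 1 cluster. Clusters of 2 or more spanned a median of 37 nt and up to 387 nt, and 41 of these 86 had members on both strands. Overlap with another member was found for 232 members, of which few shared an end: 2 shared a 5′ end and 16 a 3′ end with another.

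A run of 12 clusters on chromosome 3, at chr3:1963750-1969993, differed from the rest in strand and first base. All 33 of its members lay on the minus strand, and 6 of 33 (18.2%) began with adenine, against 394 of 492 (80.1%) elsewhere. Its members lay in or beside the annotated loci AT3G00210, AT3G01835, AT3G00220, AT3G01845 and AT3G06435. Its sum was 1501, 1185 and 945 in WT replicates 1 to 3 and 837, 370 and 1802 in rdr1 replicates 1 to 3. The lowest and the highest of these values were both in rdr1, and the groups overlapped. The run also held 21 other listed sequences with 1 match, of 21 nt (6) and 22 nt (15), all 21 on the minus strand. These summed to 839, 1028 and 954 in WT and to 758, 418 and 1174 in rdr1, again with rdr1 replicates 2 and 3 at the extremes. Counting only RNAs that overlap a cluster, 16 such sequences lay at 7 of the 12 clusters. Of the 331 clusters elsewhere, 1 was overlapped by other listed sequences with 1 match, 6 in number, upstream of AT1G19960. These 6 were 17, 18, 19, 20, 28 and 29 nt long, lay on the minus strand and shared a 5′ end. Listed sequences with several matches overlapped more often, 97 at the run and 13 at 10 clusters elsewhere. None of the clusters that changed between genotypes was overlapped by either kind.

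Levels differed widely between loci. The mean of a member over the 6 libraries had a median of 19.71 and ran from 4.10 to 952, and the 10 clusters with the highest mean held 20.3% of the member sum. The most abundant was the single sequence in an exon of the non-coding gene AT1G09805, with 1209, 1017 and 882 in WT and 482, 761 and 1361 in rdr1 replicates 1 to 3. The second was the single sequence in AT3G26775, another non-coding gene, with 506, 417 and 369 in WT and 198, 358 and 566 in rdr1. In both, rdr1 replicate 1 was the lowest library and rdr1 replicate 3 the highest, so the genotypes overlapped. The sequence upstream of PAP15, a purple acid phosphatase gene, had 317, 247 and 209 in WT and 107, 175 and 263 in rdr1. The sequence upstream of AT1G34150, a pseudouridine synthase family gene, had 214, 195 and 147 in WT and 94.1, 146 and 282 in rdr1. The cluster downstream of OSB1, which encodes a single-stranded DNA-binding protein, had 208, 132 and 141 in WT and 95.3, 147 and 177 in rdr1. These last 3 also overlapped between genotypes, with rdr1 replicate 1 lowest each time. The 5 sequences upstream of AT5G17440, a LUC7 related protein gene, summed to 262, 173 and 227 in WT and to 74.0, 170 and 190 in rdr1, which overlapped as well. Of the other 4 among the 10, both clusters of the run on chromosome 3 overlapped between genotypes, and the clusters at MYB3R-5 and AT5G08250 are described below. The log2 fold changes (rdr1 minus WT) of the 8 that overlapped lay between -0.70 and -0.21, with SEs of 0.61 to 0.64, and limma with Benjamini-Hochberg adjustment gave p from 0.758 to 0.821.

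The genotypes did not separate by the summed level of all members. The sum was 21036, 14328 and 15416 in WT replicates 1 to 3 and 8366, 13293 and 18601 in rdr1 replicates 1 to 3. The highest library was WT replicate 1 and the lowest rdr1 replicate 1, and the groups overlapped. The mean (± SD, n = 3) was 16927 ± 3600 for WT and 13420 ± 5119 for rdr1, a log2 ratio of -0.33. Without the libraries at either end, WT replicate 1 and rdr1 replicate 1, the log2 ratio was 0.10. In bulk leaves, fewer cells of a type and less small RNA per cell cannot be told apart. Sums by length, by first base, by chromosome and by place overlapped between the genotypes in every class. The 2 libraries at the ends also held the extreme shares of 28 to 34 nt and of 17 to 19 nt RNA given above, and the part of this in the member sum was not tested.

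**Figure D3:**
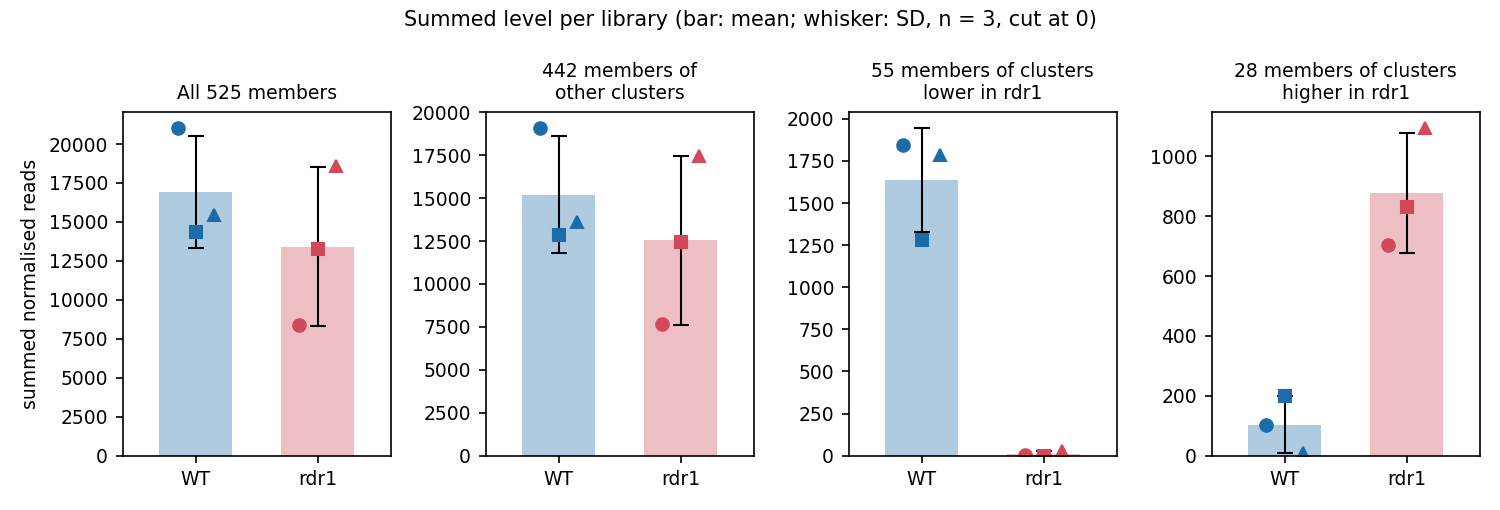
Summed normalised reads per library (points: circle, square and triangle for replicates 1 to 3), with the mean (bar) and SD (whisker, n = 3) of each genotype, for all 525 members, the 442 members of other clusters, the 55 members of clusters lower in rdr1 and the 28 of clusters higher in rdr1. The first 2 panels overlap between genotypes and the last 2 do not, which the choice of those clusters fixes.

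Although the total did not separate, the listed sequences of a small number of clusters differed between the genotypes. Most of these clusters had few or no reads in 1 genotype. Other sequences of the same loci below the listing minimum were not seen, so the level of a whole locus was not measured. Of 341 clusters tested with limma on log2(value + 1), 19 passed a Benjamini-Hochberg adjusted p of 0.05 over all 17862 cluster sums and other sequences, with 14 lower and 5 higher in rdr1. These are 19 of the 41 calls of that test, which called 0.23% of everything tested, 0.202% as lower and 0.028% as higher. Tested one by one among 18043 sequences (0.216% called, 0.2% lower and 0.0166% higher), 16 of 522 members passed, 13 lower and 3 higher, and all 16 lay in 12 of the 19 clusters. At an unadjusted p under 0.05 there were 126 members (24.1% of those tested, against 2.45% of all sequences tested). Clusters at this level numbered 55 (16.1%, against 2.0% of all rows tested). The listing minimum was reached in WT libraries only by 155 members and in rdr1 libraries only by 99. The part of this one-sided listing in these shares was not tested. Of the other 1066 nuclear 23-nt and 24-nt sequences, 5 passed, all lower. The median log2 fold change of members was -0.62, against 0.47 for all sequences tested. This distance rested on 2 libraries: without WT replicate 1 and rdr1 replicate 1 together the medians were -0.03 and -0.19. With median of ratios scaling they were -1.07 and 0.01. Whether replicate libraries stem from separate plants is not in the labels, so p-values measure only how these samples vary, which may be a technical spread.

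**Figure D4:**
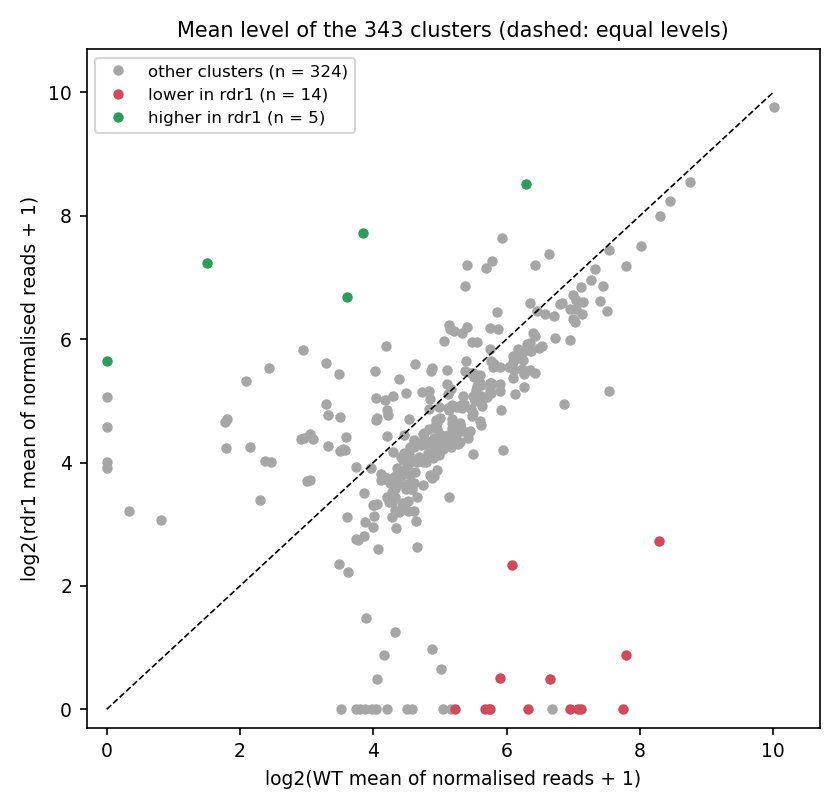
Mean level of each of the 343 clusters in WT (x) and rdr1 (y), as log2(mean of normalised reads + 1), with the line of equal levels dashed. Most clusters lie near the line, and the 14 lower (red) and 5 higher (green) clusters stand near an axis or far from the line. The limma log2 fold change was below 0 for 262 of the 341 clusters tested. Without WT replicate 1 and rdr1 replicate 1 it was below 0 for 171 of 342.

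Each of the 14 clusters that fell in rdr1 had reads in every WT library, and in 9 of the 14 no rdr1 library had a read. The 55 sequences of the 14 clusters summed to 1845, 1281 and 1785 in WT and to 3.76, 0 and 30.3 in rdr1. All 55 reached the listing minimum in WT libraries only, so they entered the table through the genotype in which they were high. Reads were counted by exact sequence, and the accession of neither genotype is stated. A change of sequence and a change of level cannot be told apart at clusters with 0 reads in a genotype. The log2 fold changes ran from -4.82 to -7.74.

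A cluster lay 1084 nt upstream of MLO11 (AT5G53760), a gene of the membrane-protein family MLO, best known for powdery mildew susceptibility. Its 8 sequences, printed above, summed to 215, 186 and 241 in WT and to 0 in each rdr1 library. Taking 3 reads in the rdr1 libraries together as the floor, the WT mean was at least 157-fold higher. Such bounds, here and below, use the mean of the genotype with reads and leave out the spread between libraries. The log2 fold change was -7.74 ± 0.99 (SE, limma, adjusted p = 1.61e-11).

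Upstream of AT1G30680, a toprim domain protein gene, 8 sequences at chr1:10880901-10880963 summed to 220, 144 and 301 in WT and to 2.51, 0 and 0 in rdr1. With 688 reads in WT and 2 in rdr1, the ratio of pooled reads was 248, with an exact 95% counting interval of 68.5 to 2055. Such intervals cover counting error only. The log2 fold change was -7.13 ± 0.93 (SE, limma, adjusted p = 5.25e-11).

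The cluster upstream of MYB3R-5 summed to 399, 212 and 325 in WT and to 0, 0 and 17.0 in rdr1. Only rdr1 replicate 3 had reads there, 14 in all, and the log2 fold change was -6.85 ± 0.83 (SE, limma, adjusted p = 8.03e-13). The call was lost with median of ratios scaling (limma, adjusted p = 0.100) and with DESeq2 on recovered reads (adjusted p = 0.539). The end of AT5G02330, a C1 domain protein gene, lay nearer to this cluster than MYB3R-5, at 141 nt against 266 nt. The related cluster downstream of AT5G02340, at chr5:491870-491941, summed to 84.4, 54.3 and 61.9 in WT and to 0, 0 and 12.1 in rdr1. Here too rdr1 replicate 3 was the only rdr1 library with reads, and the log2 fold change was -4.82 ± 1.04 (SE, limma, adjusted p = 0.00226).

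In gene bodies, 2 clusters fell. Antisense to AT1G70080, a gene of the terpenoid cyclase superfamily, lay 5 overlapping sequences of the plus strand at chr1:26395139-26395187, 3 of them in a coding exon and 2 across an exon-intron boundary. They summed to 164, 93.4 and 156 in WT and to 0 in each rdr1 library, at least 101-fold lower in rdr1 (limma, adjusted p = 5.31e-08). In an intron of AT2G02440, a gene of an uncharacterised protein, 2 sequences at chr2:638205-638246 summed to 135, 99.7 and 164 in WT and to 0 in each rdr1 library, at least 97.8-fold lower (limma, adjusted p = 7.46e-08). Neither cluster overlapped between genotypes, but both were chosen by this test. The protein-coding RNA of these genes was not measured.

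Beside genes, 3 more clusters had WT values between 66.7 and 132 and at most 1 read in rdr1. Downstream of AT3G05535, a non-coding gene, 2 sequences at chr3:10713738-10713765 summed to 111, 126 and 132 in WT and to 0 in each rdr1 library, at least 90.4-fold lower (limma, adjusted p = 1.80e-07). Upstream of AT1G08247, also non-coding, 4 sequences at chr1:21710502-21710539 summed to 111, 103 and 83.6 in WT and to 0, 0 and 1.21 in rdr1. The ratio of pooled reads there was 214 (exact 95% counting interval 38.1 to 8469; limma, adjusted p = 6.25e-06). Upstream of PSRP6 (AT5G17870), which encodes a plastid-specific ribosomal protein, 3 sequences at chr5:5907400-5907435 summed to 85.8, 66.7 and 83.6 in WT and to 0 in each rdr1 library, at least 57.9-fold lower (limma, adjusted p = 5.84e-05).

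The 5 lowest of the clusters that fell had WT values between 26.5 and 74.2. These were the clusters upstream of AT3G21791 (chr3:7679723-7679781), downstream of AT4G22650, a lipid transfer protein gene (chr4:11914042-11914066), downstream of AT4G35720 (chr4:16929396-16929440), upstream of AT5G13360, a gene of the auxin-responsive GH3 family (chr5:4282674-4282706), and the single sequence 1236 nt upstream of AAP1, an amino acid permease gene (chr1:21675129-21675152). Their rdr1 values were 0 except for 1 read in rdr1 replicate 1 at AT4G35720. The ends of UGT71B8, a glucosyl transferase gene, and of AT5G13350, another GH3 gene, lay nearer to the clusters at AT3G21791 and AT5G13360, at 325 and 279 nt. Adjusted p from limma ran from 0.00191 at AT4G35720 to 0.0429 at AAP1.

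The 5 clusters that rose in rdr1 held 28 sequences with sums of 102, 200 and 9.64 in WT and 702, 831 and 1095 in rdr1. Of these 28, 25 reached the listing minimum in rdr1 libraries only. WT replicate 3 was the lowest library in this sum, and no WT library reached the lowest rdr1 library, which the choice of these clusters fixes.

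A rise was found for 5 sequences at chr3:7898439-7898490, 734 nt upstream of AT3G22345, an F-box and kelch-repeat protein gene. The nearest gene was AT3G22340, of an uncharacterised protein, whose end lay 41 nt away. The 5 sequences summed to 2.91, 1.78 and 0.804 in WT and to 119, 132 and 198 in rdr1. The log2 fold change was 5.77 ± 0.91 (SE, limma, adjusted p = 2.83e-07). With 5 reads in WT and 335 in rdr1, the ratio of pooled reads was 92.8 (exact 95% counting interval 39.4 to 288). The groups did not overlap, but the cluster was chosen by the same limma test.

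Upstream of AT1G29550, which encodes a protein of the translation initiation factor 4E family, 8 sequences at chr1:10330081-10330130 summed to 39.3, 0 and 0.804 in WT and to 123, 254 and 256 in rdr1 (log2 fold change 5.59 ± 0.83 SE, limma, adjusted p = 2.72e-08). This call was lost with median of ratios scaling (limma, adjusted p = 0.763), with edgeR and TMM factors (0.813) and with DESeq2 (0.715). On the same chromosome, downstream of AT1G29650, 6 sequences at chr1:10363227-10363284 summed to 1.45, 31.1 and 0.804 in WT and to 76.5, 117 and 111 in rdr1 (4.27 ± 0.87 SE, limma, adjusted p = 9.22e-04). A different WT library stood out at each of the pair, replicate 1 at the first and replicate 2 at the second.

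Upstream of AT5G08250, a cytochrome P450 gene, 7 sequences at chr5:2656168-2656204 summed to 58.2, 167 and 7.23 in WT and to 360, 274 and 463 in rdr1. This cluster was the fifth most abundant of all, and its log2 fold change was 3.04 ± 0.65 (SE, limma, adjusted p = 0.00206). Downstream of AT4G06220, a non-coding gene, 2 sequences at chr4:8447004-8447029 had 0 reads in WT and summed to 23.8, 54.8 and 67.9 in rdr1, at least 49.7-fold higher (limma, adjusted p = 0.00836).

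**Figure D5:**
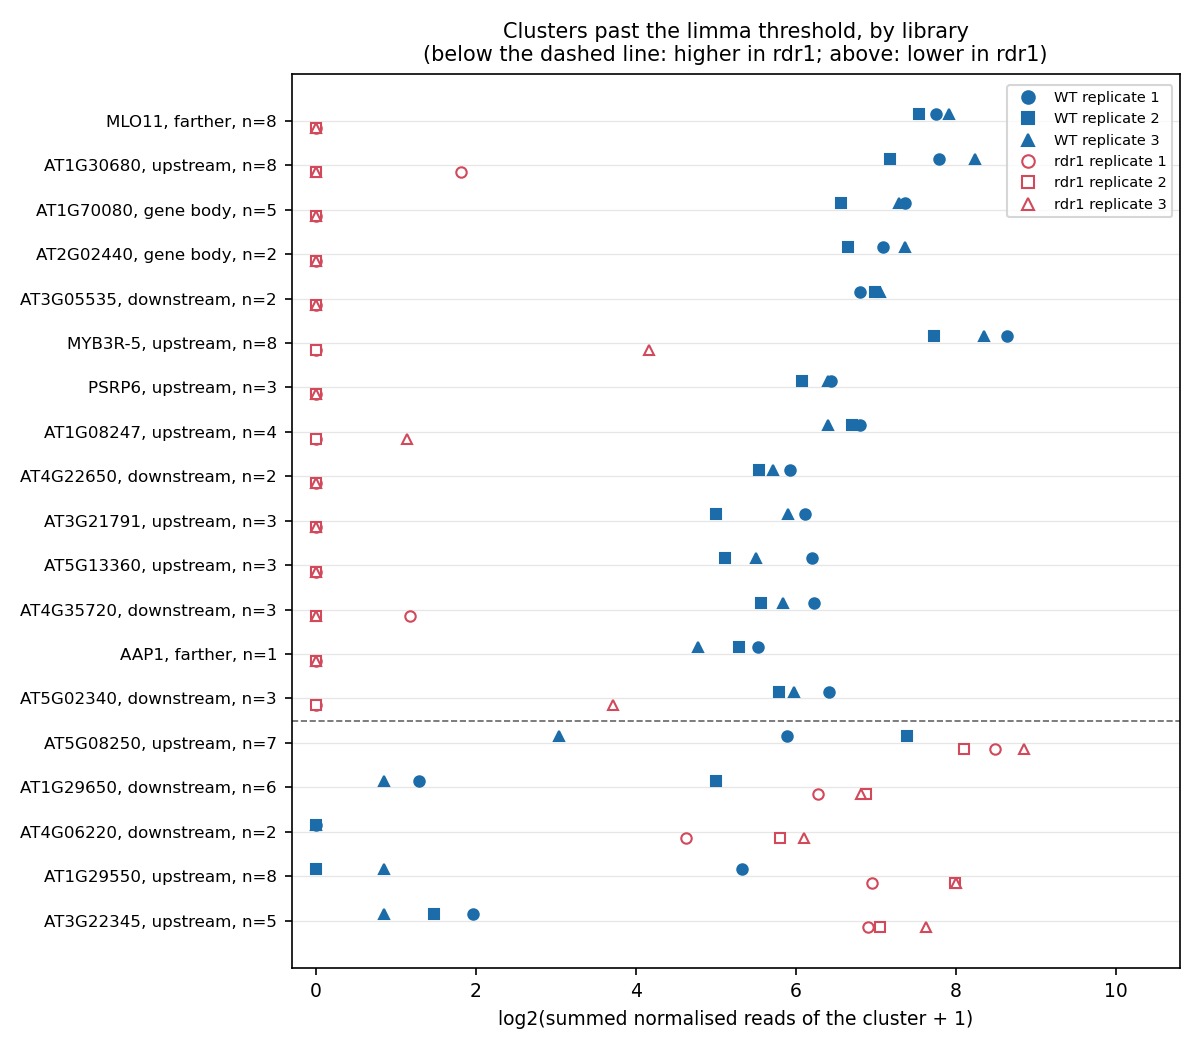
Values of the 19 clusters in each library, as log2(summed normalised reads + 1), ordered by log2 fold change, with WT filled and rdr1 open and the place and number of sequences beside each gene name. Above the dashed line 9 of the 14 clusters have all 3 rdr1 libraries at 0, and below it the 5 clusters that rose show WT libraries from 0 to 167.

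Of the 19 clusters that changed, 18 held 2 or more sequences, 14 of them 3 or more, against 68 of the 322 tested clusters that did not pass. Members lay on both strands in 11 of the 14 that fell and 4 of the 5 that rose. A single sequence cannot lie on both strands, and among clusters of 2 or more the counts were 15 of 18 that passed and 26 of 68 that did not. These counts were not tested. Clusters of several sequences also had higher levels, with a median of 55.7 against 22.5 for single sequences, and the part of this in the calls was not tested. By place, 9 of 164 upstream clusters, 6 of 59 downstream, 2 of 69 in gene bodies and 2 of 51 farther away passed. By chromosome, 4, 1, 2, 2 and 5 clusters fell and 2, 0, 1, 1 and 1 rose. Within 10000 nt of the 19, there was 1 other cluster that did not pass. Adenine was the first base of 78.3% of their 83 sequences.

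The calls depended on the libraries in the fit. Leaving out each library in turn, 9 of the 19 clusters passed every time: those at AT1G30680, AT1G08247, AT1G70080, AT2G02440, AT3G05535, MYB3R-5, MLO11, AT1G29550 and AT3G22345. Of the 19, leaving out WT replicate 1, 2 or 3 left 12, 13 and 10 calls, and leaving out rdr1 replicate 1, 2 or 3 left 19, 15 and 15. At AT3G21791, AT4G22650, AT4G35720 and AT5G13360 the call was lost without any 1 WT library, with limma adjusted p of 0.167 to 1. At AAP1 it held only without rdr1 replicate 1 (p otherwise 0.0712 to 1), and at AT5G02340 only without rdr1 replicate 1 or rdr1 replicate 3 (otherwise 0.0763 to 0.251). At PSRP6 it was lost without WT replicate 1 or 3, with an adjusted p of up to 0.192. Among those that rose, AT1G29650 lost it without rdr1 replicate 2, rdr1 replicate 3 or WT replicate 3 (0.0712 to 0.193), AT4G06220 without rdr1 replicate 2 or 3 (0.568 to 0.795) and AT5G08250 without WT replicate 3 or rdr1 replicate 3 (0.088 to 0.671). The count of single members called ran from 0 without WT replicate 3 to 30 without rdr1 replicate 1. Without WT replicate 1 and rdr1 replicate 1 together, 25 clusters passed, 18 of the 19 among them, with AT5G08250 lost (limma, adjusted p = 0.0976). Other settings with every library kept also ended calls. Median of ratios scaling ended 6, at AT1G29550, AT1G29650, AT4G06220, MYB3R-5, AT5G02340 and AT5G08250. DESeq2 ended those at AT1G29550, AT1G29650, MYB3R-5 and AT5G08250, edgeR that at AT5G08250, and edgeR with TMM factors those at AT1G29550, AT1G29650, AT5G02340 and AT5G08250. A minimum mean of 20 ended those at AT3G21791, AT4G06220, AT4G22650, AT4G35720 and AT5G13360 and left AAP1 untested, and a pseudocount of 0.5 or 20 ended that at AAP1. Calls at AT1G30680, AT1G08247, AT1G70080, AT2G02440, AT3G05535, MLO11 and AT3G22345 held under every setting tried.

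Zero values marked more loci than the test called. In all, 18 clusters had 0 reads in every rdr1 library and reads in every WT library, against 0.24% of all cluster sums and other sequences, and 9 of the 18 passed limma. The other 9 had WT means from 10.4 to 32.1 and lay upstream of DMS11 (an ATPase gene of the silencing machinery), AT1G69610, AT2G36930, AT3G06705, WAVE5 and DOF4.3 (a Dof zinc finger gene), in an intron of AT3G49230, beyond 1 kb of AT2G04260, and antisense across the end of the MIR774a gene. At DOF4.3 the values were 34.9, 27.6 and 33.7 in WT and 0 in each rdr1 library (limma, adjusted p = 0.0888). The opposite pattern was found at 5 clusters (0.0279% of all), of which AT4G06220 passed. The other 4 lay at AT1G26550, AT3G03395, AT3G45638 and AT5G05820, with rdr1 means from 14.1 to 32.5. The 9 clusters at 0 in rdr1 that did not pass held 35 to 97 WT reads in all. A cluster at 0 in a genotype could be listed only through the other. Over all libraries of a genotype, 3 reads were worth 1.36 in rdr1 and 0.982 in WT. The part of listing and depth in these counts was not tested. A cluster with 0 reads in a library and at least 50 in another of the same genotype, looked for after the values were seen, was found at 2 loci in WT and 0 in rdr1. Downstream of AT1G46552 the WT values were 156, 0 and 151, and upstream of AT4G35580, a NAC transcription factor gene, they were 34.9, 69.4 and 0, with 0 in each rdr1 library at both.

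The ranges of the genotypes did not overlap at 53 of the 343 clusters with rdr1 below. The same was found for 2.01% of all cluster sums and other sequences. With rdr1 above there were 37 clusters, against 2.76% of all those rows. Among the 525 single members 110 were below, against 2.3% of all listed sequences, and 83 were above, against 2.98%. The listing minimum was reached in WT libraries only by 155 members, in rdr1 libraries only by 99 and in both by 271. Of those 271, 9 were below, against 1.04% of all sequences listed through both genotypes, and 10 were above, against 1.48%. Reads were present in all 6 libraries for 388 of the 525 members, while 63 had 0 reads in rdr1 and 10 had 0 reads in WT.

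Of 37899 annotated nuclear genes and pseudogenes, 452 (1.19%) had a member in the body or within 1 kb. Of 13 genes known as targets of RNA-directed DNA methylation or as epialleles, among them FWA, SDC, ROS1 and FLC, 0 had one. Of 27 genes for small RNA and DNA methylation enzymes, 2 had one. At DCL4, the Dicer that makes 21-nt siRNAs, the member sum was 46.6, 15.1 and 59.5 in WT and 33.9, 70.3 and 27.9 in rdr1. At DMS3, a chromosome-structure protein of the polymerase V complex, it was 5.82, 11.6 and 13.7 in WT and 6.27, 34.3 and 10.9 in rdr1. Both overlapped between genotypes, and neither cluster passed the test.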

How the data were processed

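Small RNA was sequenced from leaves of WT (3 libraries) and rdr1 (3 libraries), grouped by the genotype in the labels, with 50-nt single-end reads per the labels' protocols. The deposited values are a normalised signal, 1 column per library per the file headers, and TAIR10 is the build that the submitters' processing notes name. Trimming, alignment, filtering and normalisation methods: not given in the sources used here. All values were whole multiples of the worth of 1 read in their library (100% to a tolerance of 0.01 reads), from which reads were recovered for alternatives. Listed reads made up 23.8% to 30.9% of the totals.

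Sequences were matched without mismatch to the RefSeq assembly TAIR10.1 and its annotation. Ribosomal DNA units ran from 2000 nt before to 7000 nt after each annotated 18S start; 5S genes are not annotated there and were not removed as such. Place was gene body (overlap of at least 1 nt), upstream within 1 kb, downstream within 1 kb, or farther, taken in that order, and neighbours up to 200 nt apart on either strand formed a cluster.

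Because the values were not raw counts, log2(value + 1) was tested with limma 3.58.1 (empirical Bayes with trend, two-sided, R 4.3.3) over all rows with a mean of at least 5, with Benjamini-Hochberg adjustment at 0.05. This draws each row's spread towards that of rows of similar mean, and folds on this scale understate changes of low values. For clusters, member rows were replaced by cluster sums. Sums by class were described without a test. The fit was tested on simulated data. Bounds on folds take 3 reads per genotype (all its libraries together) as the floor, and counting intervals are exact (Clopper-Pearson, 95%).

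The members, lists and alternatives were chosen with earlier results of these data known. Named were called sequences and clusters, the 10 clusters and 5 sequences with the highest means, clusters at 0 in a genotype and present in every library of the other, and list genes with a member in the body or within 1 kb. The lists were RNA-directed DNA methylation targets (13 genes), small RNA and DNA methylation machinery (27 genes), and 6 leaf or pollen miRNAs matched by sequence. Alternatives were other pseudocounts, filters and scalings, the replicate number as a block, libraries left out, edgeR 4.0.16 and DESeq2 1.42.0 on recovered reads, other cluster gaps and flanks, and 24-nt members alone. Replicate libraries differed by more than counting noise (chi-square per degree of freedom from 8.59 to 52.1 between pairs), so none was treated as a second deposit of another.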

Additional observations from a re-analysis of the deposited data

How the results depend on the processing

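The number of called clusters (19) stayed within 1.5 times of itself under other pseudocounts, filters, scalings, cluster gaps, 24-nt members alone and edgeR, with 13 to 23 calls, and was 34 with DESeq2. All 19 kept their direction under every setting followed for single clusters (18 for each but AAP1, which had 17 since its mean is below 20). Of the 19, 7 passed under every one of these. Other cluster gaps and 24-nt members alone were compared by the number of calls only. With a library left out in turn, 10 to 22 clusters were called. Counts of single members called moved more: from 16 to 5 at a pseudocount of 20, 4 at a mean of at least 20, 8 with median of ratios scaling, 38 with edgeR, 47 with edgeR and TMM factors, 89 with DESeq2, and 0 to 30 with a library left out. Leaving out WT replicate 1 and rdr1 replicate 1 together, an alternative chosen after the data were seen, gave 47 called members and 25 called clusters. Median of ratios scaling left 12 clusters lower and 1 higher, and moved the log2 ratio of the member sum from -0.33 to -0.83. With a library left out that ratio ran from -0.64 to -0.09. The share of members upstream was 32.6% with a flank of 500 nt and 66.1% with 2000 nt.

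The replicate numbers did not pair the libraries: deviations of same-numbered libraries correlated at -0.72, -0.30 and -0.53, and no library correlated best with its own number. With the number as a replicate block, 9 clusters and 1 single member were called.

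Some abundant loci that did not pass changed sign. At AT1G09805 this was found only without WT replicate 1 and rdr1 replicate 1 together. With a library left out in turn the log2 fold change ran from -0.64 to 0.15 at AT1G34150, from -0.40 to 0.042 at OSB1, from -0.68 to 0.077 at AT3G26775, from -0.76 to -0.014 at AT1G09805, from -1.13 to 0.14 for the cluster at AT3G01845 and from -0.75 to 0.074 for the most abundant sequence downstream of AT3G00210. Without WT replicate 1 and rdr1 replicate 1 it was 0.26 at AT1G34150, 0.25 at OSB1, 0.10 at AT1G09805 and 0.20 at AT3G26775. The causes were not tested. A read was worth up to 1.71, so low loci rest on few reads.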
